A study of Homo sapiens with 6 samples.

Results

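The comparison concerned mock-treated ribosomal RNA copied by SuperScript III with manganese or with magnesium, 2 of the 6 libraries of the series. Both libraries were made from HEK293T/17, an established human embryonic kidney cell line, grown without any treatment of the cells, and from total RNA with the short RNAs removed. Before reverse transcription the RNA was fragmented, taken through the mock version of a treatment with CMC (a carbodiimide that marks pseudouridine in the other libraries), repaired at its ends and ligated to a 3′ adapter. SuperScript III, an engineered murine leukaemia virus reverse transcriptase, was then supplied with manganese in one library and magnesium in the other, and the cDNA was selected by size, made into circles, amplified and run with all other libraries in 1 lane. The members were the positions of 18S and 28S rRNA crossed by 100 reads or more with each metal, namely 6912 of 6939 positions, 1867 in 18S and 5045 in 28S. There was 1 library per metal, so each difference compares 2 libraries and has no replicate check.

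Reverse transcriptases hold divalent metal ions in the active site, where the ions place the incoming nucleotide and drive bond formation. Magnesium is the usual ion, and manganese is known to lower the fidelity of many polymerases and to help them past lesions and bulky groups on the template. Ribosomal RNA carries its natural modifications at fixed positions. Those on the pairing edge of a base tend to stop the enzyme or to be read as another base, whereas 2′-O-methyl groups, pseudouridine and most methyl groups away from that edge are mostly read through.

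The enzyme moves along the template from 3′ to 5′. Mutation share here stands for the mismatched part of the reads that cross a position, in percent. Stop share stands for the stops at a position over its counted arrivals (stops and crossing reads together), also in percent. A stop means that the base just 3′ of the position was the last one copied. Crossing counts omit the final base of a read, so a cDNA that stopped at a position is first counted 2 positions 3′ of it. A cDNA that ended on a position is thus missing from its arrivals, which raises the stop share where the next base 5′ has many stops.

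The 13 base modifications listed for these rRNAs were the positions with a known chemical change at the base. Their surroundings in the deposited reference are shown first, each with 7 bases on either side and the modified base in capitals, written in DNA letters as deposited. Positions count from 1 in the deposited rRNA sequences, to which no genome build applies. The first 5 sequences hold modifications that block normal pairing.
m1acp3Ψ at 18S 1248: atttgacTcaacacg
m62A at 18S 1850: gtaggtgAacctgcg
m62A at 18S 1851: taggtgaAcctgcgg
m1A at 28S 1322: cgtcttgAaacacgg
m3U at 28S 4530: agctgggTttagacc
ac4C at 18S 1337: gcatggcCgttctta
ac4C at 18S 1842: aggtttcCgtaggtg
m7G at 18S 1639: gaacgagGaattccc
m6A at 18S 1832: agtcgtaAcaaggtt
m6A at 28S 4220: aacggtaAcgcaggt
m5C at 28S 3782: aggtagcCaaatgcc
m5C at 28S 4447: gatccttCgatgtcg
Ψm at 28S 3818: gcatgaaTggatgaa

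The manganese library held 32327311 reads with a stop and the magnesium library 23209210, with 36.4 and 38.1 crossing bases per stop. Median crossing depth was 248564 and 185814 in 18S and 158140 and 119172 in 28S. At this depth Fisher's exact test with Benjamini-Hochberg adjustment over all positions passed at 5790 positions for mutation and 5714 for stops, so a size bar was added. A position was called with an adjusted p under 0.05 and a difference of at least 1 point in mutation share or 5 points in stop share. The reads carry no molecular identifiers, so the tests and the 95% Wilson intervals cover counting error only. At the base modifications the widest interval extended 0.338 points to either side of its midpoint for mutation share and 0.213 points for stop share. Over the other named positions the widest extended 4.05 and 4.24 points to either side.

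Reads were mismatched more often with manganese at almost every position. The mutation share was higher with manganese at 6479 of 6912 positions, or 93.7%, and its median was 0.354% with manganese against 0.0861% with magnesium. At 1343 positions, 19.4% of those tested, the share was called higher with manganese, and at 25 positions, 0.362%, it was called lower. The difference depended on the template base. Template A had medians of 0.458% and 0.0887%, a ratio of 5.17. Those of C were 0.413% and 0.0990%, a ratio of 4.17, and those of G 0.426% and 0.0824%, a ratio of 5.16. Template U had 0.149% and 0.0590%, a ratio of 2.53. Of the positions called higher 296 were A, 511 C, 507 G and 29 U, which was 24.4%, 23.4%, 21.4% and 2.52% of the positions of each base.

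The excess lay mainly in reads that carried a U at a template A, C or G, that is, where the enzyme had put an A into the cDNA. Pooled over positions, A was read as U in 0.667% of crossing reads with manganese against 0.0765% with magnesium, a ratio of 8.72. C was read as U in 0.617% against 0.0907%, a ratio of 6.80. G was read as U in 0.582% against 0.0617%, a ratio of 9.43. The 9 other kinds of mismatch were also more frequent with manganese, by pooled ratios from 1.37 for G read as A to 3.27 for G read as C. By medians over positions the ratio was 2.04 for G read as A, whose pooled reads include G60 of 18S and G4910 of 28S, mismatched in nearly all reads of both libraries, and the lowest ratio was 1.34, for C read as A. Of all mismatched reads at A, C and G, 73.6% were read as U with manganese and 38.5% with magnesium. U was the most frequent wrong base at 4734 of 5760 such positions with manganese and at 2924 with magnesium. Of the 1343 positions called higher, 1242 differed most in reads carrying U. The mismatched reads were also spread more evenly, since the 69 positions with the most of them held 15.3% with manganese and 40.1% with magnesium.

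**Figure D1:**
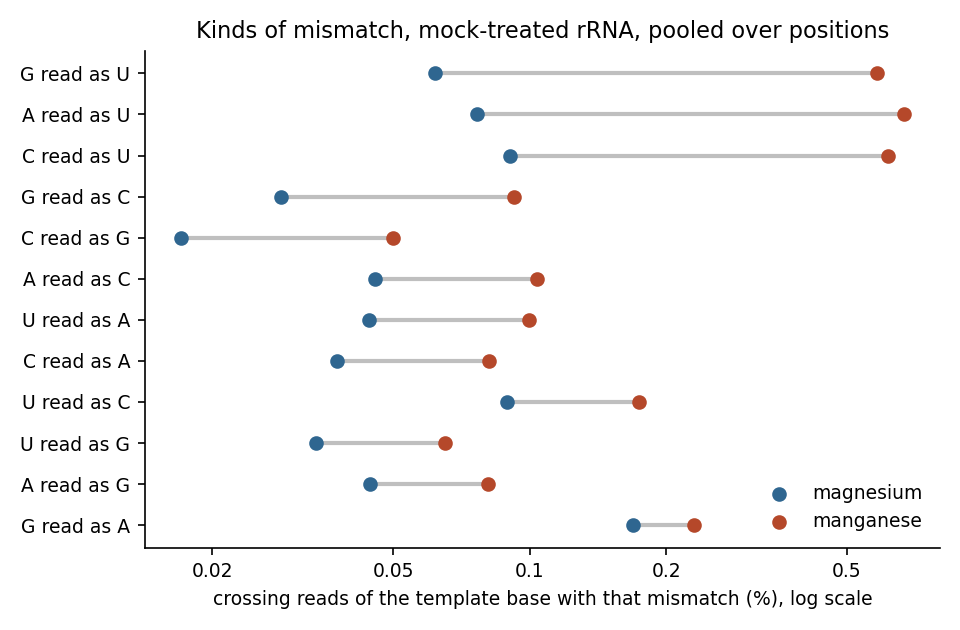
Share of crossing reads with each of the 12 kinds of mismatch, in percent on a log axis, pooled over all positions of the template base, with magnesium (blue) and manganese (red) joined by a grey line and ordered by their ratio. The 3 kinds read as U at A, C and G have the longest lines, ending near 0.6% with manganese.

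The share read as U moved with the stop share of the position 2 bases further 5′. For reads that stopped there, the position lies next to the uncounted outermost base. With positions ordered by that stop share in each library and divided into 5 bins of equal size, the median share read as U at A, C and G went with manganese from 0.0875% in the lowest bin through 0.197%, 0.339% and 0.611% to 1.48% in the highest. With magnesium it went from 0.0174% through 0.0301%, 0.0413% and 0.0521% to 0.0727%. Other mismatches at the same bases went from 0.0736% to 0.223% with manganese and from 0.0440% to 0.0568% with magnesium. All 5 bins were therefore higher with manganese, and the gap was widest where cDNAs ended often. With one order for both libraries, by the mean of the 2 stop shares, the lowest bin held 10 of the positions called higher (0.724% of its 1382 positions) and the highest bin 633 (45.8%). Within the lowest bin, 58.1% of mismatched reads at A, C and G were still read as U with manganese against 34.7% with magnesium. Over all positions, Spearman's rho between mutation share and the stop share 2 positions 5′ was 0.467 with manganese and 0.292 with magnesium. At the adjacent 5′ position it was 0.00337 and 0.149. These correlations are across positions of the same libraries and are a description only. Whether the read ends account for the difference between the metals was not tested.

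**Figure D2:**
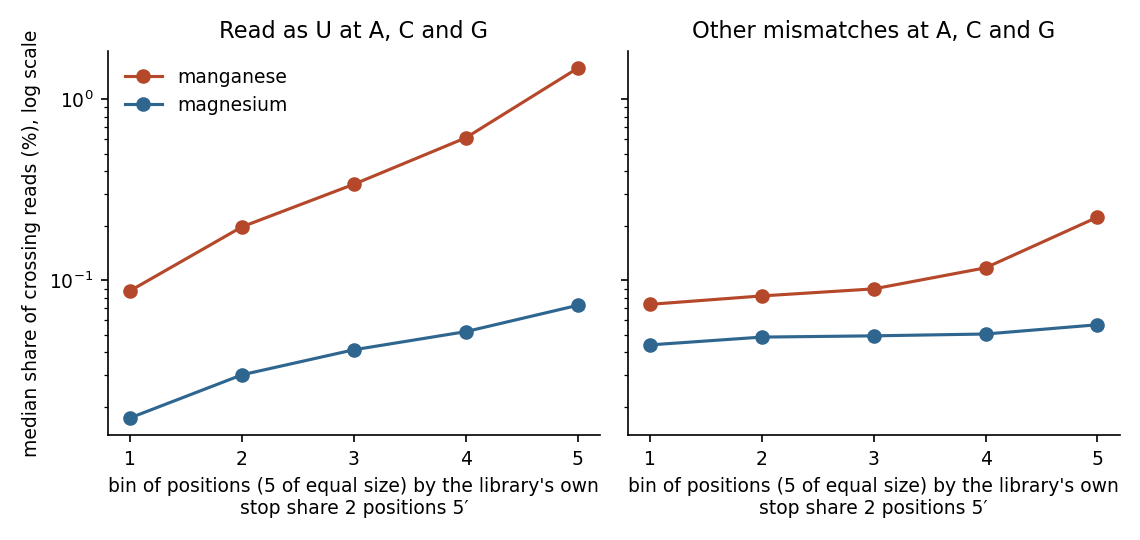
Median share of crossing reads read as U (left) and with any other mismatch (right) at template A, C and G, in percent on a log axis, by bin of positions (5 of equal size) ordered by the library's own stop share 2 positions 5′. The manganese line for reads carrying U climbs from 0.0875% to 1.48%, the magnesium line from 0.0174% to 0.0727%.

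Neighbouring bases shifted the share as well. With manganese, A was read as U most often when the next base 3′, copied just before it, was G, with a median of 0.443%, and least often when it was C, with 0.183%. C followed the same order, with 0.562% before a 3′ G and 0.186% before a 3′ C. G was likewise lowest before a 3′ C, with 0.143%, but its highest median was before a 3′ A, 0.325%, with 0.314% before a 3′ G. With magnesium the medians by 3′ base lay between 0.0204% and 0.0338% at A and between 0.0494% and 0.0584% at C. A second pattern was a wrong base equal to the base 3′ of the position. With manganese, reads carrying C where it was not the template base had a median of 0.105% when the 3′ base was C and 0.0492% otherwise, a ratio of 2.13. The ratio for reads carrying G with a 3′ G was 2.56. With magnesium the same ratios were 1.28 and 1.23. For reads carrying A the ratio was 0.885 with manganese and 0.891 with magnesium, and for reads carrying U it was 1.203 and 1.13, so the ratios were largest for C and G. For the 5′ base the ratios with manganese were 1.18 for C and 1.24 for G.

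The positions with the largest rise in mutation share lay in GC-rich stretches of 28S, apart from m1A1322 and the template end. They are shown because the same wrong base, U, leads at each.
C at 28S 4030: gccggccCtgcgggc
C at 28S 2205: cccccccCcacgcct
G at 28S 1145: gggggggGtgccgcg
G at 28S 666: gaccggcGaccggcc
C at 28S 3547: ccgggtcCgcccccg
C at 28S 3342: cccccccCaccccac
At C4030 the mutation share was 19.1% with manganese (95% Wilson interval 18.5 to 19.7) and 1.21% with magnesium (0.998 to 1.47). Reads carrying U made up 18.2% and 0.982% of those crossing. At G666 the mutation share was 15.5% and 0.306%, and reads carrying U were 13.8% and 0.194%. At G1145 it was 17.4% and 1.66%, at C3547 14.8% and 0.843%, and at C3342 15.02% and 1.15%. C2205, crossed by 1250 and 511 reads, had 20.0% and 3.33%. The stop share 2 positions 5′ was between 16.9% and 54.7% with manganese at these 6 positions and between 4.25% and 52.6% with magnesium. The largest rise of all was at C3 of 28S, near the template end, from 1.48% with magnesium to 29.7% with manganese.

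Falls in mutation share were few. At most of the 8 largest, both libraries showed a wrong base often. At C4806 of 28S, 23.5% of reads carried U with manganese and 40.8% with magnesium. At the next base, U4807, 19.6% carried C with manganese and 36.9% with magnesium. These neighbours have exchanged letters at like shares in each library, and 1357 and 1564 reads crossed the first of them. C4148 of 28S fell from 10.5% with magnesium to 2.63% with manganese, G4150 from 13.0% to 6.97% and U868 from 15.9% to 8.38%. C3050 fell from 38.6% to 31.6%, and G2195 from 19.1% to 13.3% over 596 and 423 crossing reads.

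Outside the lists, 146 positions had a mutation share of at least 5% in either library. In 26 of them both libraries reached it, with medians of 12.3% with manganese and 15.4% with magnesium. In 114 it was reached only with manganese, with medians of 7.07% and 0.829%, and in 6 only with magnesium. Of the 114, 67 were C, 33 G, 10 A and 4 U. Their depth was low. The median over the 146 was 6956 crossing reads with manganese and 4661 with magnesium, against 191682 and 142700 over all positions. Of the 10 unlisted positions with the highest mean share, C4806, U4807 and C3050 are among the falls above, and the 7 others differed by less than 5 points between the libraries. G60 of 18S was read as another base in 99.97% and 99.98% of reads, nearly always A, and G4910 of 28S in 99.90% and 99.97%. G3041 of 28S was mismatched in 84.7% and 85.6%, and G60 of 28S in 20.1% and 23.1%. A3506 of 28S had 33.0% and 37.8%, C3337 54.2% and 50.5%, and C883 17.0% and 21.3%.

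Of the 13 base modifications, 4 were called higher and 2 lower in mutation share, and 3 lower and 0 higher in stop share. Over all positions 19.4% and 0.362% were called in mutation and 1.29% and 0.969% in stops. All 3 stop falls were at modifications that block pairing. m1acp3Ψ1248 of 18S, a pseudouridine with a methyl and an aminocarboxypropyl group in the ribosome's P site, had a stop share of 1.85% with manganese and 26.8% with magnesium. One base further 5′, at C1247, the stop share was 8.52% with manganese and 28.4% with magnesium, counted on cDNAs that ended after the modified base had been copied. No unlisted U fell by more in stop share, of 1033. Its mutation share fell from 67.0% to 59.7%. The wrong base was C in 94.7% of mismatched reads with magnesium and in 82.9% with manganese, where A made up 5.47% of crossing reads against 2.71% and G 4.74% against 0.809%. As shares of the counted arrivals, 39.5% were copied as U with manganese and 24.1% with magnesium. These shares leave out the cDNAs that ended on the modified base, 18844 with manganese and 46359 with magnesium. The base put in by those cDNAs was not counted.

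The adjacent dimethyladenosines near the 3′ end of 18S, placed by the methyltransferase DIMT1, showed the largest stop difference of all. At m62A1850 the stop share was 41.9% with manganese (41.7 to 42.0) and 94.98% with magnesium (94.93 to 95.02). Reads that passed and matched made up 56.5% and 4.91% of arrivals. Depth changed across the site, since 435554 and 1092723 reads crossed 1852 on its 3′ side, while 247564 and 54673 crossed 1850 itself. At m62A1851, the first of the pair to be copied, the mutation share was 4.34% with manganese and 0.748% with magnesium, mostly reads carrying U, 3.79% and 0.616%. Its stop share was 0.0223% and 0.332%, from 58 and 199 stops. Both its shares rest on the 260317 and 59767 reads that crossed it. These leave out the 178205 and 1033392 cDNAs that stopped at 1850, so the stop shares at 1851 also carry that difference. Position 1851 is the last of 18S with any stop, 18 bases from the 3′ end. Stops further 3′ were not counted, and how many there were cannot be told here. At 1850 the mutation share was 2.80% and 2.34%, a difference below the bar. U1848, 2 positions 5′ and unlisted, went the other way, with 0.963% with manganese and 4.24% with magnesium.

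m1A1322 of 28S, a methyladenosine placed by RRP8 whose methyl group blocks pairing, was read as another base in 34.1% of reads with manganese and 19.0% with magnesium. Reads carrying U were 24.9% and 12.9%, those carrying G 6.73% and 4.71%, and those carrying C 2.51% and 1.40%, so U made up 72.9% and 67.9% of the mismatched reads. The stop share here was lower by 9.71 points with manganese. One base 3′, at Am1323, the stop share was 11.6% with manganese and 23.6% with magnesium, from 15045 and 17424 stops. The 114472 and 56485 reads crossing Am1323 leave out the 364415 and 354051 cDNAs that stopped at 1322. One base further 3′, 476082 and 409524 reads crossed 1324, so the gap in stop share at Am1323 also carries the stops at 1322. As a share of arrivals at 1322, 7.67% became mismatched reads with manganese and 2.43% with magnesium, and 14.8% and 10.4% matching reads.

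m3U4530 of 28S, methylated on the pairing edge, differed from these in that its stop share was near the ordinary level in both libraries, 2.15% with manganese and 2.03% with magnesium. Its mutation share fell from 32.4% with magnesium to 27.4% with manganese. The wrong base changed as well. Reads carrying A were 20.8% with manganese and 17.7% with magnesium, and those carrying G 6.09% and 14.2%. Thus A made up 75.9% and 54.7% of its mismatched reads.

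The modifications that keep pairing open had mutation shares of at most 1.76% with manganese and 0.592% with magnesium. Those at C and G nevertheless lay above the medians of unlisted positions in both libraries. These medians were 0.420% with manganese and 0.0992% with magnesium for C, and 0.430% and 0.0830% for G. The acetylcytidines placed by NAT10 had 1.69% and 0.592% at ac4C1337 and 1.25% and 0.542% at ac4C1842, and U was the wrong base in 90.4% and 90.1% of the mismatched reads at the first. Among the 2154 unlisted C, 372 had a higher share than ac4C1337 with manganese and 144 with magnesium. Only the first passed the bar as a rise. m7G1639 of 18S had 1.35% and 0.520%, with A as the leading wrong base at 0.827% and 0.323%. Its stop shares were 15.1% and 15.5%, and at the next base 5′, G1638, they were 25.9% and 24.0%. m5C3782 of 28S rose from 0.252% with magnesium to 1.76% with manganese, and 97.1% of its mismatched reads with manganese carried A, not U. m5C4447, methylated by NOP2, had 0.990% and 0.171%. Both m6A sites lay below the medians of unlisted A, 0.469% with manganese and 0.0858% with magnesium. m6A1832 of 18S, the METTL5 site, had 0.156% and 0.0331%, and m6A4220 of 28S, the ZCCHC4 site, had 0.107% and 0.0475%. Of 1175 unlisted A, 929 and 1008 had a higher share with manganese and 1146 and 1043 with magnesium. Ψm3818 of 28S had 0.0556% and 0.0439%.

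**Figure D3:**
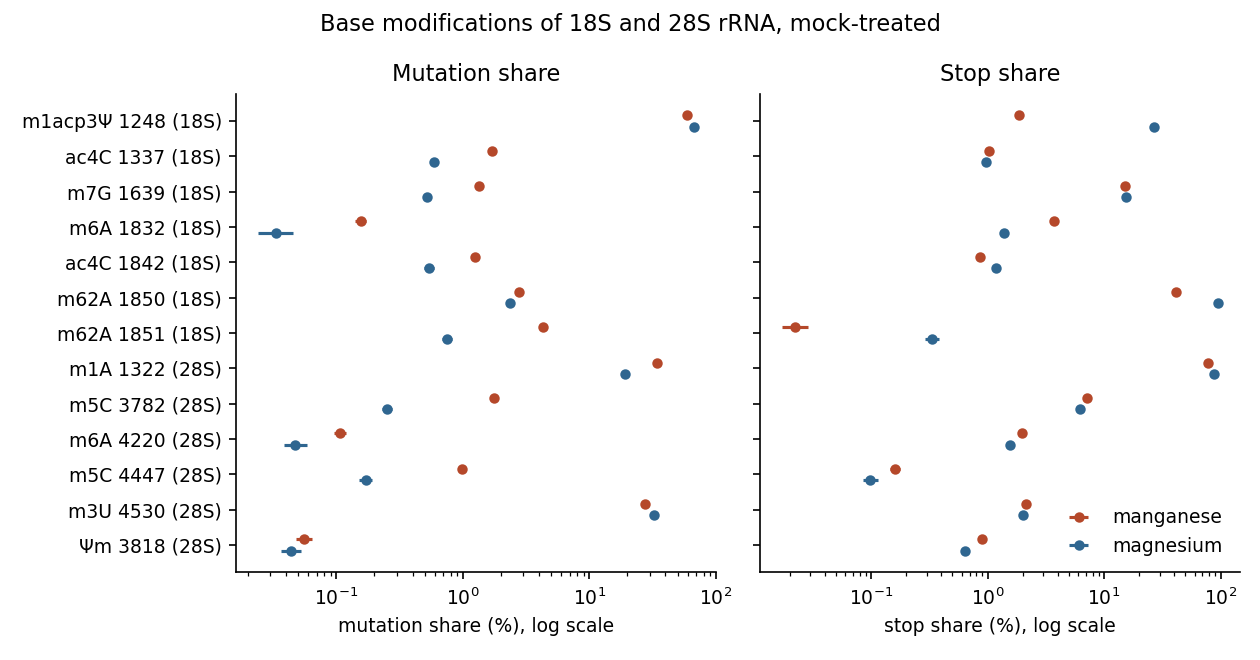
Mutation share (left) and stop share (right) at the 13 base modifications, in percent on log axes, with manganese (red) and magnesium (blue), bars giving 95% Wilson intervals. The blue stop points of m62A1850 (94.98%) and m1acp3Ψ1248 (26.8%) lie right of the red ones (41.9% and 1.85%), farther so at m1acp3Ψ1248 on the log axis.

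Pseudouridine, an isomer of U that pairs like it, was mismatched no more often than other U in either library, by the medians. Over 99 listed sites the median mutation share was 0.116% with manganese and 0.0561% with magnesium, against 0.156% and 0.0594% at 1033 unlisted U. One site was called, 1.01% of the list against the 19.4% of all positions and 2.71% of unlisted U called higher. It was Ψ1081 of 18S, in the sequence ccgaccaTaaacgat, with 1.71% and 0.276%, and 1.68% and 0.230% of crossing reads carried A. Ψ863 of 18S had 0.713% and 0.173%, also mostly A, Ψ3884 of 28S 0.498% and 0.0853%, and Ψ1625 of 18S 0.498% and 0.145%. No listed pseudouridine was called in stop share, but over all positions only 1.29% were called higher and 0.969% lower. The median stop share was 2.38% and 1.93%, against 2.04% and 1.79% at unlisted U. The largest differences were at Ψ651 of 18S, 2.51% and 6.396%, Ψ1238, 10.1% and 6.62%, Ψ822, 12.9% and 9.50%, and Ψ36, 3.92% and 7.35%.

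The 2′-O-methyl group, added to the ribose by fibrillarin with guide RNAs, is known to hold back reverse transcriptases. At 102 listed sites the median stop share was 2.23% with manganese and 1.41% with magnesium, with a median difference of 0.643 points and 79 of 102 higher with manganese. At 6698 unlisted positions the medians were 1.86% and 1.66%, with a median difference of 0.153 points. The 23 2′-O-methylcytidines had medians of 2.78% and 1.55%, and 22 of them were higher with manganese. Stop falls were called at 4 sites of this list, or 3.92%, against 0.969% of all positions. Stop rises were called at 0 sites, against 1.29% of all positions. Gm4228 of 28S had 2.21% with manganese and 17.2% with magnesium, Am1323 the values given beside m1A1322, Gm4042 16.7% and 25.4%, and Gm3744 6.92% and 12.7%. The median of this list and its called sites thus had opposite signs in these libraries. In the CMC-treated pair the difference was 2.63 points at Gm4042 and 0.403 at Gm3744, the opposite sign, and -5.02 at Gm4228 and -9.22 at Am1323. In mutation share the list was low with manganese, with a median of 0.122% against 0.367% at unlisted positions, and with magnesium 0.0734% against 0.0868%. The single call was a rise at Gm1447 of 18S, 2.32% with manganese and 0.222% with magnesium. It made up 0.980% of the list, against 19.4% of all positions and 19.96% of unlisted positions called higher. Below the bar, Cm1881 of 28S had 1.07% and 0.0828%, Am2787 1.07% and 0.368%, and Gm4637 0.558% and 0.0565%.

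The 2′-O-methyladenosines stood apart from the others in reads carrying U, a pattern singled out after the values were seen. With magnesium the median share read as U over the 33 sites was 0.181%, against 0.0229% at 1175 unlisted A, a ratio of 7.90. Of the 33, 20 lay above the 90th percentile of unlisted A, 0.140%, and 31 above its median. With manganese the median was 0.309% against 0.300%, a ratio of 1.03, and 17 of 33 lay above the median of unlisted A and 0 above the 90th percentile. The stop share 2 positions 5′ had medians of 1.49% with manganese and 1.61% with magnesium at these sites, against 2.28% and 1.94% at unlisted A. At C and G the methylated sites were read as U less often than unlisted ones in both libraries, with 0.0355% against 0.0538% for C and 0.0155% against 0.0239% for G with magnesium.

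Among these adenosines the base on the 3′ side went with the level. Sites from both ends of the order by magnesium share are shown, with the methylated A in capitals.
Am159 of 18S: tgtggtaAttctaga
Am3785 of 28S: tagccaaAtgcctcg
Am1031 of 18S: atcaagaAcgaaagt
Am4590 of 28S: catggtaAtcctgct
Am398 of 28S: tttgaagAgagagtt
Am4523 of 28S: gaacgtgAgctgggt
Am2363 of 28S: tggtagtAgcaaata
Am159 was read as U in 0.687% of reads with manganese (0.648 to 0.729) and 0.853% with magnesium (0.804 to 0.906). Am3785 had 0.491% and 0.733%, Am1031 0.408% and 0.511%, and Am4590 0.725% and 0.473%. At the other end Am398 had 0.0859% and 0.0372%, Am4523 0.02499% and 0.0211%, and Am2363 0.00832% and 0.00619%. The 11 sites followed by a 3′ G lay between 0.00619% and 0.0923% with magnesium, with a median of 0.0403% against 0.0251% at unlisted A before G. The 22 others lay between 0.0885% and 0.853%, with a median of 0.272% against 0.0219%. With manganese the 11 had a median of 0.0859% against 0.470% at unlisted A before G, and the 22 had 0.347% against 0.228%. In the CMC-treated pair of libraries, which share no library with this one, the 33 sites had a median of 0.153% with magnesium against 0.0347% at unlisted A. With manganese it was 0.323% against 0.367%.

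**Figure D4:**
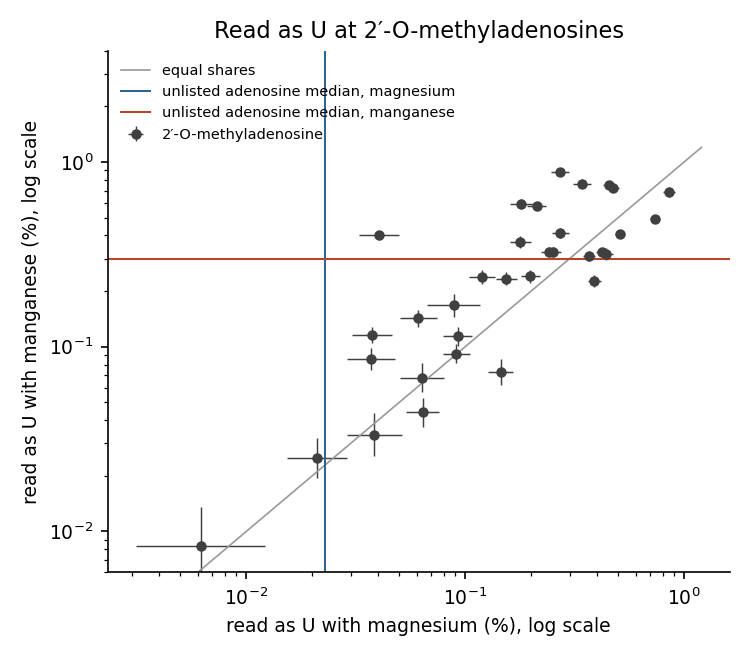
Share of crossing reads carrying U at each of the 33 listed 2′-O-methyladenosines with magnesium (horizontal) and manganese (vertical), in percent on log axes, with 95% Wilson intervals. Coloured lines mark the unlisted adenosine medians (0.0229% and 0.300%) and the grey line equal shares, and most points lie right of the blue line but on both sides of the red one.

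Stops differed less than mismatches. The median stop share over all positions was 1.87% with manganese and 1.66% with magnesium, and 4142 positions (59.9%) were higher with manganese. At 89 positions, 1.29%, the stop share was called higher and at 67, 0.969%, lower. By template base the median difference was 0.0847 points for A, 0.170 for C, 0.180 for G and 0.168 for U. When the stop odds of the magnesium library were scaled so that the median position had equal odds, these became -0.0893, 0.0234, 0.0206 and -0.000926 points, so the sign for A and U depended on that scaling.

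The base copied last gave a clearer split. Where it was A, the median stop share was 2.60% with manganese and 3.84% with magnesium, and only 27.5% of 1213 positions were higher with manganese. Where it was C the medians were 1.75% and 1.22%, with 75.0% of 2180 positions higher. Where it was G they were 1.61% and 1.38%, and where it was U 2.17% and 1.86%. The median difference after A was -0.715 points, and it lay between -0.874 and -0.617 whichever base was not copied. After C it was 0.385 points and lay between 0.335 and 0.549. Under the scaled odds the medians were -1.24 points after A and 0.231 after C, and 0.0426 after G and -0.0853 after U, so the direction after U depended on the scaling. Of the 67 positions called lower 24 (35.8%) followed an A, against 17.5% of all positions. Of the 89 called higher 48 (53.9%) followed a C, against 31.5%. The cDNA ends counted here had also been circularised in the library preparation of both metals, and its part in these values was not tested.

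**Figure D5:**
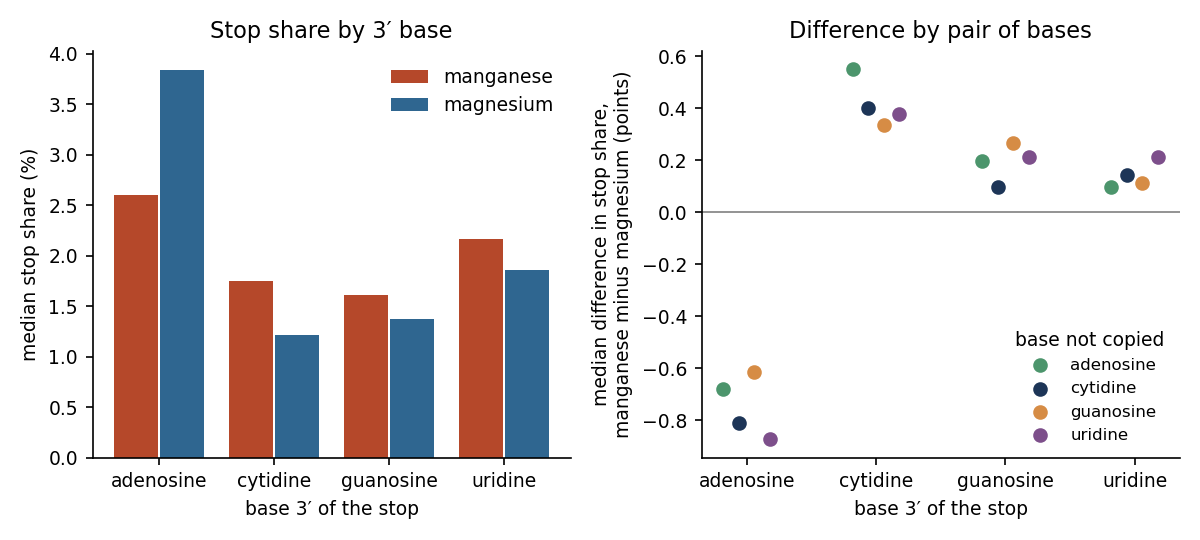
Left, median stop share in percent with manganese (red) and magnesium (blue) by the base 3′ of the stop, which was copied last. Right, median difference in points for each pair of that base and the base not copied (colours), with all 4 pairs below zero after adenosine and all 12 others above it.

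At the 5′ end of each template a smaller share of reads started on base 1 with manganese. Whether the last bases had been left uncopied was not tested. Of reads that started within the first 11 bases of 18S, 5.93% started on base 1 with manganese (5.79 to 6.07) and 38.6% with magnesium (38.3 to 38.9), and 27.96% and 17.04% started on base 2. In 28S 7.14% and 59.4% started on base 1 and 27.3% and 8.83% on base 2. This end supplied 4 of the 8 largest stop rises. A2 of 18S had 58.8% with manganese and 17.7% with magnesium, and C3 of 18S 18.1% and 2.48%. G2 of 28S had 21.3% and 2.19%, and G4 of 28S 31.4% and 10.4%. Stop shares at base 2 leave out the reads that started on it, 30703 and 17463 in 18S and 15619 and 7053 in 28S. The total of reads starting within the first 11 bases was 109814 and 102479 in 18S and 57229 and 79869 in 28S.

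The remaining called stops lay mostly in GC-rich parts of 28S, in both directions. Positions were divided into 4 groups by the GC share of the 15 template bases ahead of the enzyme. The group with the highest share held 61 of the stop rises (3.85% of its positions) and 43 of the falls (2.72%). The lowest group held 2 (0.0832%) and 12 (0.499%). The ratio of crossing reads, manganese over magnesium, moved with GC, with a median of 1.35 in the lowest and 1.43 in the highest group. In 4 groups by predicted pairing (RNAplfold on the reference sequence), the most paired group had median stop shares of 1.58% with manganese and 1.26% with magnesium, and the least paired group 2.01% and 1.96%. The median difference was 0.202, 0.203, 0.156 and 0.0739 points from the most to the least paired group.

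The unlisted positions of 28S among the 8 largest stop falls and rises are shown, without those at the template end. The base copied last was A at 4 of these 5 falls and C at all 4 of these rises. Of the unlisted positions not shown, the fall at C1247 of 18S followed U, and at the template ends the rise at G4 of 28S followed A and the 3 others followed C. The base not copied is in capitals.
Fall at 28S 3217: cgggcacCcgggggg
Fall at 28S 1022: cccccgcGagggggg
Fall at 28S 4002: tccccgcGaggggcc
Fall at 28S 3187: gcgggggCacggtcc
Fall at 28S 1174: cggggcgGactgtcc
Rise at 28S 3215: cccgggcAcccgggg
Rise at 28S 3335: cgcgcccCccccccc
Rise at 28S 3339: cccccccCcccaccc
Rise at 28S 4028: ccgccggCcctgcgg
G1022 had a stop share of 6.75% with manganese (5.84 to 7.80) and 28.02% with magnesium (26.3 to 29.8), and G4002 5.09% and 26.0%. Their surroundings share the 12-base run ccccgcGagggg although they lie in different parts of 28S. C3187 had 14.1% and 32.3%, and G1174 15.6% and 31.9%. C3217 had 3.36% with manganese and 25.7% with magnesium, and A3215, the base after next in the direction of copying, 37.9% and 21.7%. Here the place where the enzyme stopped most often thus differed by 2 bases between the libraries. C3335, crossed by 393 and 288 reads, had 39.9% and 22.6%, C3339 35.7% and 20.0%, and C4028 32.6% and 18.1%. C4028 lies 2 bases 5′ of C4030, the largest mutation rise away from the template end.

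The CMC-treated pair gave most calls the same direction. Its manganese-minus-magnesium difference had the same sign at 1340 of the 1343 positions called higher in mutation and 21 of the 25 called lower, against 96.9% and 3.07% of all positions with that sign. For stops it was 78 of 89 and 59 of 67, against 58.3% and 41.2%. Fewer also passed the size bar there. In mutation it was 1068 of the rises and 15 of the falls, against 30.02% and 0.434% of all positions, and in stops 43 of the rises and 36 of the falls, against 3.54% and 4.63%. At m1acp3Ψ1248 the stop share there was 3.68% with manganese and 68.1% with magnesium, and at m62A1850 37.1% and 89.4%.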

How the data were processed

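Per the labels' protocols, RNA of 1 cell line was fragmented, mock-treated and copied under each condition. The submitters' processing notes name Trimmomatic 0.32 and Bowtie 1.0. Settings, mismatch limit and reference were not given in the sources used here. The authors deposited, for each library and rRNA, counts, per the file headers, of crossing reads, of each base and of stops at every position, and a mismatch rate and stop frequency as fractions, which equal the ratios of those counts. The deposited fractions were not used otherwise. The HIV enzyme's libraries were not analysed here, and the CMC-treated SuperScript III pair served only as an alternative.

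Positions crossed by 100 or more reads with each metal were compared by two-sided Fisher's exact tests (scipy 1.17.1) with Benjamini-Hochberg adjustment over all positions of both rRNAs. With 1 library per group, p-values measure only differences between reads. Modification lists came from general knowledge, and 99 pseudouridines and 102 ribose methylations fell on their base. Members, lists and tests were chosen with earlier results of these data known. Named were all base modifications, the 8 largest called rises and falls per measure, the 4 pseudouridines and 4 ribose methylations with the largest difference per measure, and the 10 unlisted positions with the highest mismatch. Pairing was predicted with RNAplfold 2.7.2 (window 150, span 100). The calls were tested on simulated data for 6912 positions. Of 60 positions raised by 2 points in mutation 59 were called, of 60 raised by 8 points in stops 60, and of 6732 unchanged 1 and 0. Raises below the bars, 0.5 points in mutation and 2 in stops, were called at 0 of 60 each. The simulated reads held counting error only, without repeated reads or differences between libraries. They cannot give the rate of false calls in these data.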

Additional observations from a re-analysis of the deposited data

Results flagged for a closer look

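At 9 positions of 28S the manganese-minus-magnesium difference passed the size bar in both the mock-treated and the CMC-treated pair but with opposite sign, among 6912 positions compared for each measure. With 1 library per group these opposite signs were not tested. Mutation was the measure at 2 of them. G626, crossed by 563 and 332 mock reads, had -2.30 points in the mock pair and 2.54 in the CMC pair. A3343 had 4.88 points in the mock pair and -1.24 in the CMC pair. For stops, U827 had 5.61 points in the mock pair and -45.6 in the CMC pair, where the magnesium library stopped at 59.5%. G1020 had 6.17 and -8.13 points, U1055 5.96 and -9.46, and U3242 5.33 and -10.4. G3562 had 5.74 and -5.38 points and U4163 5.48 and -8.70. C3541 differed the other way, with -6.59 points in the mock pair and 13.5 in the CMC pair.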

How the results depend on the processing

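Alternatives by coverage, bar, ratio rule, scaling, end positions, folding window and the CMC-treated pair were planned, while leaving out end positions for mutation calls, those by stop share 2 positions 5′ and those for the 3′ neighbour and the ratio rule for falls were chosen after seeing the data. The 1343 mutation rises became 2260 with a bar of 0.5 points, 520 with 2 points, 296 by the ratio rule (at least 4 times the magnesium share relative to the base's median ratio, of which 246 were shared), 2077 in the CMC pair and 176 at positions no higher than the median in stop share 2 positions 5′. The 25 mutation falls became 10 with a coverage minimum of 10000, 82 by the ratio rule and 9 at those positions. The 89 stop rises became 34 with a coverage minimum of 10000, 559 and 20 with bars of 2 and 10 points, and 247 in the CMC pair. The 67 stop falls became 31, 436, 25 and 323 under the same alternatives and 125 with scaled odds. The median mutation differences at A, C, G and U (0.3198, 0.279, 0.310 and 0.0771 points) were 0.685, 0.603, 0.646 and 0.172 with reads pooled, 0.443, 0.337, 0.654 and 0.740 in the CMC pair, and 0.0805, 0.0624, 0.136 and 0.0309 in the lowest of 5 bins by stop share 2 positions 5′. The share of mismatches read as U was higher with manganese by 35.1 points, by 32.9 as a median over positions, 27.2 without positions of 5% mismatch or more, 31.1 in the CMC pair and 23.3 in that lowest bin. Median stop differences at A, C, G and U (0.0847, 0.170, 0.180 and 0.168) reversed at A and U with scaled odds (-0.0893, 0.0234, 0.0206 and -0.000926), and in the CMC pair were 0.338, 0.331, 0.125 and, reversed, -1.54. By the base copied last, A, C, G and U had -0.715, 0.385, 0.194 and 0.136 points, with scaled odds -1.24, 0.231, 0.0426 and, reversed, -0.0853, and in the CMC pair -0.586, 0.191 and 0.553 at A, C and U. CMC treatment differs from mock in the RNA itself, and the cause of the other changes was not tested. The other 28 alternative values stayed within their main interval or 1.5 times their main count. Among them were the folding window of 70 and the count of 6 of 13 base modifications with a lower stop share with manganese. With stops at the next 3′ position added that count held other members, since ac4C1842 went from -0.332 to 0.053 points and m6A4220 from 0.438 to -0.394. Single kinds of mismatch and single modified positions gave 57 values that moved by more than their counting interval and 4 that did not, with no reversed direction among the kinds of mismatch. Reads carry no molecular identifiers and there is 1 library per metal, so differences of conditions cannot be told apart from differences of libraries.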
